A study of Mus musculus with 24 samples.

Results

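The comparison set mouse embryonic fibroblasts carrying the GMT cocktail against mock-treated fibroblasts at day 7, over all genes of the count table. It used 6 of the 24 libraries of the series, 3 labelled GMT and 3 mock, both labelled day 7. The fibroblasts came from C57BL/6 embryos of day 13.5 to 14.5. The protocol given for the series exposed cells to retrovirus in 2 rounds of 24 hours each and then put them in a serum-rich induction medium. The labels give only the letters GMT, by convention Gata4, Mef2c and Tbx5. They do not say whether mock cells received an empty virus or which of these steps they shared, so the factors and the virus cannot be told apart. GMT and mock at day 2, and GHMT (GMT with Hand2) and AGHMT (GHMT with Akt1) at day 7, each with 3 libraries, served only to show where GMT at day 7 differed. Infected and uninfected cells were not separated, so every value is an average over a mixed culture, in which fewer cells of a type and less RNA per cell cannot be told apart.

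GATA4, MEF2C and TBX5 are transcription factors of the embryonic heart. Delivered together they switch on heart muscle genes in part of a fibroblast culture, a process called direct cardiac reprogramming. Fibroblasts are otherwise known for making the collagen and elastic fibre matrix, and the change of identity is followed through contractile genes on one side and matrix genes on the other.

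The 6 libraries held 32717665 to 36830759 counts each and detected 22720 to 24068 genes. On a principal component plot of these libraries the first component separated GMT from mock and held 94% of the variance. Mock replicate 3 stood apart from the other mock libraries on the second component and carried more transcripts of interferon-responsive genes, whose values are given per library below. Whether the replicates are separate cultures is not stated in the labels, and if they are not, the p-values reflect technical spread alone. Levels are in CPM (counts of a gene scaled to a common library total), and differences are log2 fold changes of GMT over mock ± SE. The words "rose" and "fell" are used for genes with an adjusted p under 0.05 by edgeR's quasi-likelihood test over 17576 tested genes. Every SE of a log2 value is that value's size divided by the square root of the test's F statistic. It is too narrow where a group held few counts, as leaving out single libraries shows for Mybpc3 below. Gata4 stood at 1026, 1048 and 992 CPM in the 3 GMT libraries and 1.51, 1.33 and 1.36 CPM in mock. Mef2c stood at 1656, 1739 and 1648 against 31.1, 35.6 and 32.6 CPM. Tbx5 stood at 2302, 2400.4 and 2279 against 11.2, 11.5 and 10.3 CPM. All 3 rose, and viral and endogenous transcripts were counted together. Hand2, which GMT lacks, stood at 3.08, 3.46 and 3.14 against 7.33, 8.05 and 7.35 CPM and fell by 1.23 on the log2 scale. Akt1 stood at 387, 380.2 and 373 against 401, 395 and 359.5 CPM and did not pass the test.

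The 2 groups differed in most genes, 73.0% of those tested. Of the 17576 genes, 6513 rose (37.1%) and 6321 fell (36.0%), and 2760 rose (15.7%) and 2580 fell (14.7%) by 2-fold or more. The libraries of the 2 groups did not overlap for 6931 genes that were higher (39.4%) and 6644 that were lower (37.8%). The median log2 fold change of all tested genes was 0.01. The counts of each gene group below are read against these shares.

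The 12 highest fold changes were mostly of heart muscle genes. They were taken from called, named genes at 5 CPM or more in the higher group whose GMT and mock libraries did not overlap. By fitted value they were Myl7, Mybphl, Mybpc3, Sln, Csrp3, Trim54, Cbln4, Mcpt4, Myom2, Ceacam15, Kcnj5 and Asb11. Where mock held few or no counts the fitted value is uncertain, and so are the rank of the gene and its place among the 12. Myl7 (ENSMUSG00000020469, chromosome 11, 5896637-5898782 on GRCm38), the regulatory light chain of atrial myosin, stood at 1599, 1597 and 1582 CPM in GMT and 0.0591, 0.0905 and 0.0951 CPM in mock, where 8 counts were found in all (log2 14.20 ± 0.17, edgeR, adjusted p = 1.74e-27). Mybpc3 (ENSMUSG00000002100, chromosome 2, 91118144-91136516 on GRCm38), the cardiac myosin-binding protein that links thick filaments, stood at 643, 695 and 664 against 0, 0.151 and 0.0951 CPM (log2 12.94 ± 0.13, 13.71 without mock replicate 2 and 12.35 without mock replicate 1). Both genes were at or near the detection limit in every mock library, and every GMT library was far above every mock library.

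Some of these genes had no count at all in mock, so their fold change is a lower bound set by 3 counts per library. Mybphl, a relative of myosin-binding protein H found in the atria, was at 38.4, 37.6 and 38.4 CPM in GMT and at 0 in mock, at least 417-fold higher. Trim54, a ubiquitin ligase of the sarcomere, was at 19.2, 18.6 and 16.2 CPM, at least 197-fold higher. The same held for 3 genes that are not textbook heart muscle genes: Cbln4, a secreted synapse organiser, was at least 196-fold higher at 17.1, 19.6 and 16.98 CPM, Mcpt4, a mast cell protease with close relatives in its gene cluster, at least 131-fold at 11.7, 12.7 and 11.5 CPM, and Ceacam15, of the carcinoembryonic antigen family, at least 90.8-fold at 7.83, 9.02 and 8.03 CPM. Sln, the sarcolipin that inhibits the atrial calcium pump, stood at 244, 262 and 231 CPM in GMT against 3 counts in mock, a ratio of 8066 (95% exact counting interval 2759.7 to 39115). Csrp3, the muscle LIM protein of the Z disc, stood at 122, 131 and 144 CPM against 2 counts, a ratio of 6531 (1808 to 53931). Asb11, a ubiquitin ligase adaptor of muscle, stood at 28.03, 30.6 and 28.3 CPM against 1 count, a ratio of 2854 (512 to 112774). These intervals cover counting error only.

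The 12 lowest fold changes, chosen by the same rule, were of secreted and matrix proteins and of a few receptors. They were Egfl6, Kera, Agtr2, Reg1, Eln, Col8a2, Mfap4, Olfml1, Nov, Fcrls, Dlk1 and Cxcl15. Rank and membership are again uncertain where GMT held few or no counts, as in Kera and Reg1. Eln (ENSMUSG00000029675, chromosome 5, 134702593-134747323 on GRCm38), which encodes elastin, stood at 1.66, 2.8 and 5.48 CPM in GMT and 2013, 1677 and 1373 CPM in mock (log2 -8.97 ± 0.24, edgeR, adjusted p = 4.99e-21). Agtr2 (ENSMUSG00000068122, chromosome X, 21484544-21489164 on GRCm38), the type 2 angiotensin receptor of embryonic mesenchyme, stood at 0.475, 0.485 and 0.537 against 578, 511 and 581 CPM (log2 -10.11 ± 0.25). Egfl6, a secreted EGF-repeat protein, stood at 0.0593, 0.0286 and 0.107 against 272, 253 and 279 CPM. In each of these genes the GMT libraries lay below the mock libraries by more than 2 orders of magnitude. Kera, the keratocan proteoglycan, had no count in GMT and 7.92, 7.36 and 9.73 CPM in mock, at least 97.99-fold lower. Reg1, a secreted regenerating protein, had 2 counts in GMT against 16.8, 15.1 and 16.2 CPM in mock, a mock-to-GMT ratio of 850.0 (235 to 7025). Fcrls, known as a gene of microglia and macrophages, stood at 0.089, 0.114 and 0.107 against 26.7, 19.6 and 28.1 CPM, beside the macrophage markers described below.

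**Figure D1:**
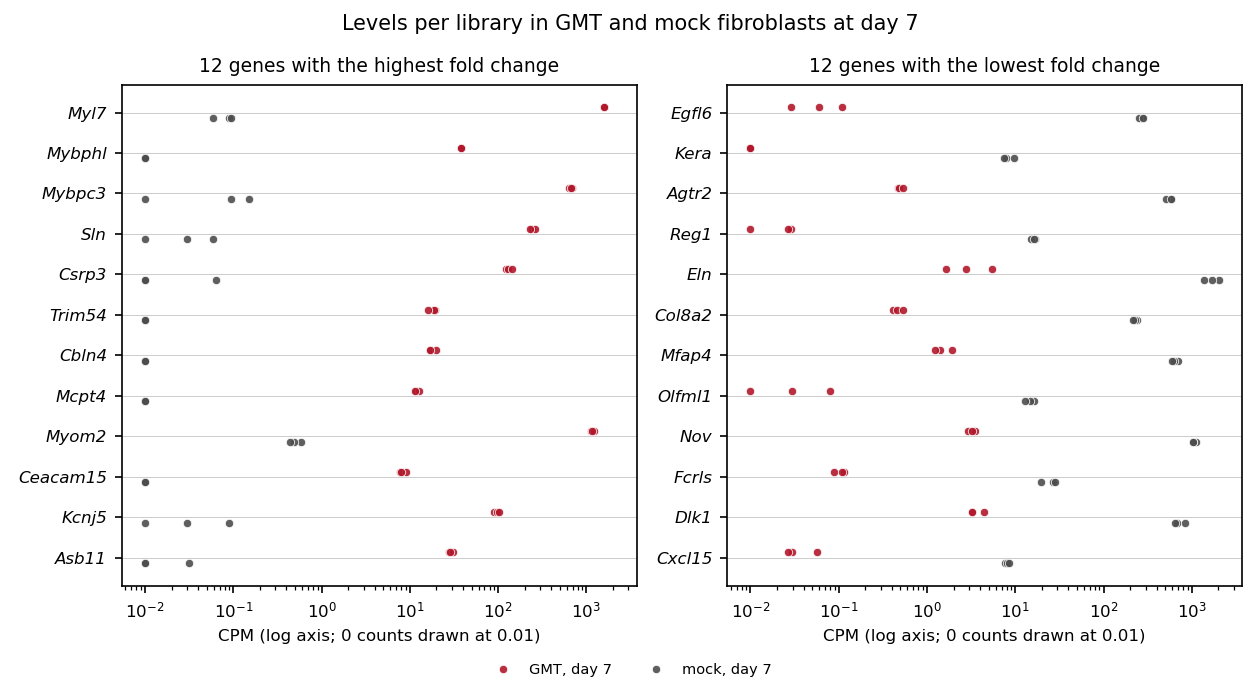
Level of each of the 12 genes with the highest (left) and the 12 with the lowest (right) fold change at day 7, in CPM on a log axis, 1 point per library (red, 3 GMT libraries; grey, 3 mock libraries; libraries with 0 counts are drawn at 0.01). The GMT and mock points do not overlap because the 24 genes were chosen among those whose libraries do not overlap.

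Thick filament genes, which build the myosin motors, held the highest median of all lists at log2 8.53. Of 9 tested members, 7 rose, all by 2-fold or more, and 1 fell. The forms of the embryonic atrium changed most. Myl4, the atrial essential light chain, stood at 2765, 2932 and 2754 against 3.58, 3.26 and 2.95 CPM (log2 9.75 ± 0.14). Myh6 (ENSMUSG00000040752, chromosome 14, 54941921-54966927 on GRCm38), the alpha heavy chain of cardiac myosin, stood at 261, 258 and 241 against 0.384, 1.03 and 0.634 CPM (log2 8.53 ± 0.15), although reads shared with its neighbour Myh7 make the split between them uncertain. The ventricular forms stayed near the detection limit: Myl2, the ventricular regulatory light chain, at 0.475, 0.485 and 0.188 against 0.0591, 0.0603 and 0.127 CPM (log2 2.17 ± 0.56). Myh7, the slow heavy chain, stood at 0.475, 0.8 and 0.322 against 0.325, 0.241 and 0 CPM (log2 1.44 ± 0.48). Myl3, the ventricular essential light chain, stood at 0, 0.286 and 0.107 against 0.0296, 0.211 and 0.0634 CPM, which did not pass the test. Levels this low rest on few counts: the rise of Myh7 did not pass without GMT replicate 2 (1.02) or without mock replicate 3 (0.89), and was 2.06 without mock replicate 1. The member that fell, Myh7b, a heavy chain of slow fibres, stood at 0.267, 0.143 and 0.188 against 0.325, 0.241 and 0.539 CPM, and its call was lost in 9 of 12 alternative settings, with log2 fold changes from -0.95 to -0.51 among the lost calls.

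The bases before the start of 3 of these and related genes are shown because GATA4, MEF2C and TBX5 are DNA-binding proteins. Myl7 and Mybpc3 were among the highest fold changes, and Nppa, atrial natriuretic peptide, is a classical target of both GATA4 and TBX5. Each window is the 250 bases before the gene's first start in the RefSeq promoter table (GRCm38.p6), read 5′ to 3′ on the gene's strand. Capitals mark matches, on either strand, to GATA motifs (the forms AGATAA with its variant AGATAG, and TGATAA with its variant TGATAG), MEF2 motifs (TANNNNTA with A or T at each N) and T-box motifs (AGGTGT), none of which overlap in these windows. The Myl7 window is chr11:5898783-5899032 on the minus strand, the Mybpc3 window chr2:91117894-91118143 on the plus strand, and the Nppa window chr4:148000472-148000721 on the plus strand.
Myl7: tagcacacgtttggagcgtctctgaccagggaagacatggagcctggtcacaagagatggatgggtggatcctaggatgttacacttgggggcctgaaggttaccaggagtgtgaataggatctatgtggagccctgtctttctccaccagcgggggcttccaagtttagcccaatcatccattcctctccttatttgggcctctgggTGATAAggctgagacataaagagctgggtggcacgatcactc
Mybpc3: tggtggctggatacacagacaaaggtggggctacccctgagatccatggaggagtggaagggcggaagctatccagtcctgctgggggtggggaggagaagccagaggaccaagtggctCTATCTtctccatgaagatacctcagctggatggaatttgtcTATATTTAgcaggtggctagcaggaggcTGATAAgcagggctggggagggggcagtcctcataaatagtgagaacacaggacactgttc
Nppa: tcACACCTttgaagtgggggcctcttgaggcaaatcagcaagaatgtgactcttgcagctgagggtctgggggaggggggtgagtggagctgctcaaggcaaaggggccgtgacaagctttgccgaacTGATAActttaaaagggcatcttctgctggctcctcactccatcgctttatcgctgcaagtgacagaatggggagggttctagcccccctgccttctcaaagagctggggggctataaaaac
A GATA match began 42 bases before the start in Myl7 and 122 bases before it in Nppa, and Mybpc3 held 2 GATA matches and a MEF2 match. Nppa also held a T-box match at the far end of the window, while the Myl7 and Mybpc3 windows held none. Of promoters with a sequence, GATA matches were in 6 of 9 thick filament, 3 of 9 thin filament and 5 of 16 Z disc promoters, against 17.6% of the 12014 tested genes with a promoter sequence. They were also in 4 of 7 promoters of the epithelial and mesothelial markers, and in 5 of 10 matched promoters of the 12 highest and 3 of 9 of the 12 lowest fold changes. MEF2 matches were in 2 of 9 thick filament, 1 of 9 thin filament and 6 of 16 Z disc promoters, against 4.4% of all, and T-box matches in 0 of 9 thick filament, 2 of 9 thin filament and 2 of 16 Z disc promoters, against 9.71%. With so few promoters a list, these shares describe the lists and do not set them apart. A match is a description of the letters and not evidence of binding, which was not measured here.

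In the thin filament, the actin strand with its calcium-sensing troponins, 11 of 11 members rose, 10 of them by 2-fold or more (median 6.18). Tnnt2 (ENSMUSG00000026414, chromosome 1, 135836354-135852260 on GRCm38), cardiac troponin T, stood at 5263, 5444 and 5081 against 17.6, 19.1 and 16.2 CPM (log2 8.22 ± 0.11). Actc1, cardiac alpha-actin, stood at 1387, 1339 and 1331 against 1.36, 1.39 and 0.983 CPM (log2 10.08 ± 0.11). Each GMT library was above each mock library by more than 2 orders of magnitude in these 2 genes. Tnni3, the cardiac troponin I, rose to 126, 132 and 126 CPM from 0.798, 1.03 and 0.951 CPM. Tnni1, the slow skeletal form that the embryonic heart also uses, rose to 65.7, 64.8 and 62.4 CPM from 0.709, 1.27 and 0.666 CPM. Both isoforms of the inhibitory subunit were thus present. Tnnc1, the troponin C of heart and slow muscle, stood at 313, 319 and 288 against 2.07, 1.9 and 1.59 CPM. The smallest change was in Tpm1, a tropomyosin that fibroblasts make as well, at 2392, 2345 and 2257 against 1411, 1476 and 1396 CPM (log2 0.71 ± 0.05).

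At the Z disc, which anchors thin filaments and titin, 20 of 21 members rose and none fell (median 3.91). Ttn, the giant spring of the sarcomere, stood at 589, 604 and 689 against 0.916, 1.3 and 1.3 CPM (log2 9.06 ± 0.36). Actn2, the muscle alpha-actinin that cross-links actin, stood at 60.5, 62.8 and 61.6 against 0.502, 0.302 and 0.412 CPM (log2 7.23 ± 0.10). Fhl2, a LIM protein also present in fibroblasts and named after its values were seen, was the member that did not pass, at 173, 177 and 160.1 against 181, 181 and 176 CPM. In the M band, where thick filaments are held together, and among the muscle ubiquitin ligases, 9 of 9 members rose (median 5.48). Myom2, the M-protein, stood at 1129, 1221 and 1164 against 0.591, 0.483 and 0.444 CPM (log2 11.16 ± 0.07), while Myom1, myomesin 1, changed less, at 63.7, 61.1 and 59.8 against 20.04, 19.9 and 18.5 CPM (log2 1.66 ± 0.06). Smpx, a small muscle protein, stood at 190.0, 194 and 184 against 0.0591, 0.151 and 0.0634 CPM. A pair of muscle ring finger ligases rose to lower levels. Trim63 stood at 15.9, 16.6 and 15.4 against 0.443, 0.181 and 0.159 CPM. Trim55 stood at 0.623, 0.428 and 0.322 CPM against 3 counts in mock, a ratio of 14.9 (4.8 to 74.7).

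Genes that store and release calcium in the sarcoplasmic reticulum rose in 12 of 15 members and fell in 3 (median 2.68). Ryr2 (ENSMUSG00000021313, chromosome 13, 11553102-12106945 on GRCm38), the calcium release channel of the heart, stood at 483, 513 and 512 against 0.414, 0.362 and 0.444 CPM (log2 10.26 ± 0.25). Casq2, the calcium-binding protein of the store, stood at 202, 213 and 198 against 1.92, 1.87 and 2.19 CPM (log2 6.68 ± 0.07). Trdn, triadin, stood at 24.4, 23.9 and 22.3 against 0.118, 0.151 and 0.127 CPM. In these 3 genes every GMT library lay above every mock library. Of the pump inhibitors, Pln, phospholamban, reached 4.78, 5.94 and 4.43 CPM from 0.177, 0.151 and 0.0951 CPM (log2 5.11 ± 0.21), beside Sln described above. The members that fell were Ryr3, a broadly expressed release channel, at 0.682, 1.09 and 1.13 against 8.69, 11.6 and 10.1 CPM. Itpr1, the inositol trisphosphate receptor, stood at 76.8, 74.5 and 74.1 against 127, 128 and 130.2 CPM. Asph, aspartate beta-hydroxylase, stood at 104, 95.9 and 98.96 against 176, 182 and 184 CPM.

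Ion channels and exchangers moved both ways, with 15 of 27 members higher and 7 lower (median 1.52). The subunits of the acetylcholine-gated potassium channel of atrium and node rose: Kcnj5 to 90.6, 97.5 and 102 CPM from 0.0887, 0.0302 and 0 CPM, and Kcnj3 to 5.81, 6.65 and 5.35 CPM from 2 counts in mock, a ratio of 292 (80.5 to 2417). A pacemaker channel and an exchanger rose as well. Hcn4, the pacemaker channel, stood at 10.1, 11.1 and 10.2 against 0.827, 0.452 and 0.349 CPM (log2 4.25 ± 0.28). Slc8a1, the sodium-calcium exchanger, stood at 96.3, 99.4 and 93.05 against 20.5, 23.3 and 20.95 CPM. The channel of the cardiac plateau current went the other way: Cacna1c, the L-type calcium channel, stood at 42.9, 38.1 and 40.3 against 94.04, 95.3 and 92.6 CPM (log2 -1.22 ± 0.13). Larger falls were in Cacna1g, a T-type calcium channel, at 13.02, 11.5 and 12.1 against 198, 191 and 201 CPM. Kcnj2, the inward rectifier, stood at 1.78, 1.63 and 1.83 against 12.7, 5.76 and 15.2 CPM. Mock replicate 2 held the lowest Kcnj2 level of the 3 mock libraries and was still above all GMT libraries.

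Junction genes of the intercalated disc, where heart muscle cells couple, rose in 12 of 13 members (median 2.64). Dsp (ENSMUSG00000054889, chromosome 13, 38151294-38198577 on GRCm38), desmoplakin of the desmosome, stood at 2318, 2535 and 2491 against 3.81, 4.52 and 4.22 CPM (log2 9.19 ± 0.14). The connexins moved in different directions. Gja5 (connexin 40, of atrium and conduction system) rose to 41.97, 39.8 and 35.4 CPM from 1.86, 1.93 and 1.93 CPM. Gja1 (connexin 43, which fibroblasts also make) rose to 474, 504 and 451 CPM from 295, 291 and 287 CPM. Gjc1 (connexin 45) fell to 6.17, 6.05 and 6.37 CPM from 30.00, 31.4 and 28.9 CPM. Among natriuretic peptide genes, 6 of 9 rose and 3 fell. Nppa (ENSMUSG00000041616, chromosome 4, 148000722-148002079 on GRCm38) stood at 622, 602 and 546 against 0.414, 0.513 and 0.159 CPM (log2 10.64 ± 0.16). Nppb, the B-type peptide, stood at 114, 112 and 93.6 against 1.09, 1.51 and 1.2 CPM (log2 6.39 ± 0.13). Corin, the protease that activates the atrial peptide, stood at 134, 148 and 132 against 0.384, 0.302 and 0.159 CPM. The hormones and the processing enzyme were thus higher together, whereas Npr3, the clearance receptor, fell to 8.25, 7.51 and 8.81 CPM from 56.3, 54.7 and 49.6 CPM. Adrb1, the main beta receptor of the heart for adrenaline, fell to 0.564, 0.228 and 0.296 CPM from 4.58, 4.74 and 3.84 CPM. Chrm2, the muscarinic receptor of the heart, rose to 4.3, 4.48 and 4.11 CPM from 1.83, 2.29 and 1.97 CPM. Of the cAMP-binding Popeye genes, Popdc2 rose to 39.1, 41.1 and 39.8 CPM from 2.01, 1.96 and 1.68 CPM.

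Heart regulators outside the cocktail did not share the direction of the structural genes. Of 28 tested, 14 rose and 11 fell (median 0.13), against 37.1% and 36.0% of all genes. Tbx20, a T-box factor of the heart, stood at 43.3, 43.1 and 44.2 against 0.65, 0.603 and 0.697 CPM (log2 6.06 ± 0.12). Tbx2, a repressor of the non-chamber myocardium, stood at 80.9, 84.4 and 87.3 against 5.5, 5.7 and 5.1 CPM. Prox1 stood at 12.7, 13.2 and 13.1 against 1.09, 1.12 and 1.24 CPM. Myocd, the serum response factor coactivator myocardin, stood at 29.3, 29.5 and 27.3 against 2.87, 3.32 and 3.55 CPM (log2 3.15 ± 0.16). Gata6, a relative of Gata4, fell, to 10.0, 11.5 and 11.2 CPM from 16.7, 14.99 and 15.8 CPM, as did the Iroquois factors Irx3 and Irx5. Nr2f2, a factor of atrial identity, fell to 11.5, 11.99 and 12.3 CPM from 32.7, 32.9 and 29.8 CPM. Nkx2-5, a core factor of the heart field, held 8 counts over the 3 GMT libraries and 2 over the 3 mock libraries and was too low to test.

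Markers of the other muscle types moved apart. In the skeletal muscle list, 11 of 19 tested members rose and 1 fell (Tnni2, fast troponin I, at 0.178, 0.143 and 0.322 against 0.532, 0.332 and 0.444 CPM, a call lost without GMT replicate 1 or 2 or mock replicate 1), and 10 others, Myod1, Myf5 and Pax7 among them, were too low to test. Myog, the differentiation factor of skeletal muscle, stood at 0.237, 0.343 and 0.215 against 0.207, 0.332 and 0.127 CPM and did not pass. The member with the highest change was Myl1, a light chain of fast fibres that the embryonic atrium also uses, at 40.4, 44.1 and 43.7 against 0.827, 0.905 and 0.666 CPM (log2 5.73 ± 0.14), and Acta1, skeletal alpha-actin, stood at 29.9, 25.9 and 27.6 against 22.9, 22.4 and 20.6 CPM (log2 0.34 ± 0.11). The call of Acta1 was lost without GMT replicate 1 (log2 0.29) or mock replicate 3 (0.29). Of the smooth muscle list, which is also the list of contractile myofibroblasts, 12 of 15 members fell and 3 rose (median -0.71). Acta2, smooth muscle alpha-actin, stood at 1979, 1817 and 1799 against 3439, 3349 and 2996 CPM. Cnn1, calponin, stood at 73.00, 70.04 and 73.2 against 150.5, 154 and 143 CPM. Tagln, transgelin, stood at 1018, 963 and 936 against 1321, 1373 and 1251 CPM. The falls were of 2-fold or more in 5 members, and in 3 when libraries were scaled by their totals alone.

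**Figure D2:**
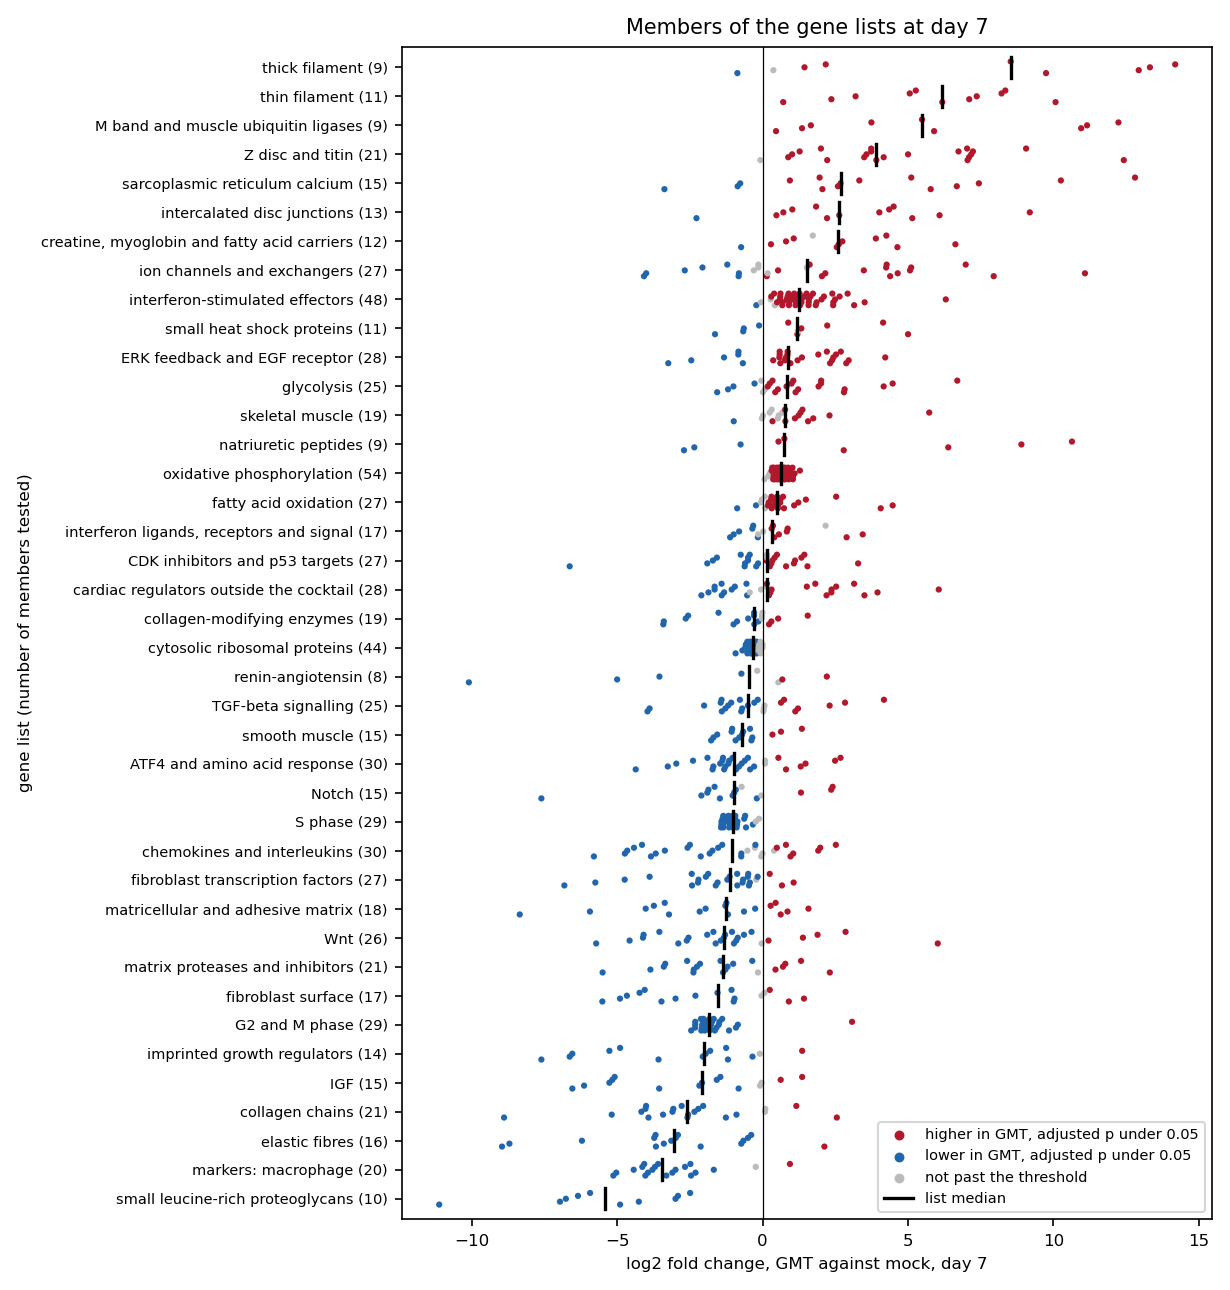
Log2 fold change of every tested member of the gene lists drawn, at day 7, 1 point per gene and 1 row per list, ordered by the list median (black bar). Not drawn are the Hox genes, sterol and fatty acid synthesis, adrenergic and muscarinic receptors, and the cell type marker lists other than macrophage. Several of these lists moved both ways. Sarcomere lists lie at the top with medians from 3.91 to 8.53, and the small leucine-rich proteoglycans lie at the bottom with a median of -5.42.

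Energy genes rose by small steps in the respiratory chain and by large steps in muscle isoforms. Of 54 nuclear genes of oxidative phosphorylation, 51 rose and none fell, with a median of 0.62 and 5 at 2-fold or more (8 when scaled by library totals alone). Atp5a1, of ATP synthase, stood at 760.3, 781 and 773 against 521, 509 and 496 CPM. Uqcrc2, of complex III, stood at 151, 158 and 157 against 92.7, 93.2 and 91.8 CPM, so changes of under 2-fold were larger than the spread between libraries. The 37 genes of the mitochondrial genome were at 0 counts in every library of the table and give no information. In glycolysis, 18 of 25 members rose and 4 fell. The muscle isoforms led: Pgam2, muscle phosphoglycerate mutase, stood at 174, 184 and 176 against 1.68, 1.84 and 1.62 CPM (log2 6.70 ± 0.11). Eno3, muscle enolase, stood at 282, 287 and 293 against 15.8, 15.95 and 16.3 CPM, whereas Eno2, the neuronal enolase, fell to 6.94, 7.42 and 7.85 CPM from 23.1, 21.6 and 21.2 CPM. Pdk4, the kinase that turns pyruvate away from oxidation, stood at 243, 249.8 and 252 against 10.3, 11.4 and 11.8 CPM. Acaa2, the last enzyme of mitochondrial fatty acid oxidation, stood at 643, 676 and 641 against 41.99, 39.00 and 36.3 CPM. The fatty acid oxidation list had 21 higher and 2 lower genes among 27. Mb, myoglobin, stood at 34.5, 39.00 and 36.2 against 0.414, 0.332 and 0.349 CPM. Fabp3, the heart fatty acid carrier, stood at 103, 102 and 98.1 against 3.96, 4.22 and 3.99 CPM. Ckb, brain creatine kinase, stood at 400.1, 368 and 351 against 66.5, 59.6 and 56.1 CPM. Ckm, the muscle creatine kinase, was too low to test.

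Among stress chaperones, the small heat shock proteins of muscle rose: Hspb7, the cardiovascular form, stood at 235, 251 and 243 against 7.57, 8.08 and 7.04 CPM (log2 5.00 ± 0.06). Cryab, alpha-B-crystallin, stood at 716, 687 and 696 against 155, 154 and 142 CPM. Hspb2, encoded beside Cryab, stood at 28.1, 26.7 and 27.8 against 1.42, 1.96 and 1.27 CPM. The inducible Hspa1b went the other way, at 7.06, 5.8 and 6.56 against 20.1, 19.1 and 21.4 CPM. Of the list, 6 of 11 members rose and 4 fell.

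Fibroblast regulators were lower. Of 27 transcription factors of fibroblasts and mesenchyme, 23 fell, 14 of them by 2-fold or more, and 3 rose (median -1.14). Prrx1, a homeobox factor of limb and connective tissue mesenchyme, stood at 139.6, 128 and 141 against 729, 718 and 759 CPM (log2 -2.43 ± 0.05). Twist1 stood at 19.7, 17.4 and 18.5 against 103, 96.1 and 103 CPM. Snai2, a factor of epithelial-mesenchymal transition, stood at 9.73, 8.77 and 9.48 against 41.2, 45.99 and 42.1 CPM. The largest falls of the list at 5 CPM or more were in Meox2, a homeobox factor of the somites, at 0.0297, 0.114 and 0 against 5.88, 6.15 and 5.26 CPM, and in Osr2, a zinc finger factor of limb and palate mesenchyme, at 0.534, 0.6 and 0.484 against 34.2, 25.9 and 27.9 CPM. Of the surface markers, 12 of 17 fell and 3 rose. Pdgfra, the platelet-derived growth factor receptor of mesenchyme, stood at 64.8, 59.8 and 64.6 against 502, 489.9 and 521 CPM (log2 -3.00 ± 0.07). Thy1 stood at 531, 486 and 449 against 1028, 1046 and 1005 CPM. Broad mesenchymal markers went the other way. Vim, vimentin, rose to 6179, 5705 and 5769 CPM from 3262, 3146 and 3050.4 CPM. Cd44, the hyaluronan receptor, rose to 942, 938 and 937 CPM from 336, 353 and 363 CPM.

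Matrix genes fell. Of 21 collagen chains, 17 fell, 16 of them by 2-fold or more, and 2 rose (median -2.59). The fibrillar chains, which give connective tissue its tensile strength, all fell. Col1a1 (ENSMUSG00000001506, chromosome 11, 94936224-94953042 on GRCm38) stood at 2612, 2405 and 2501 against 22753, 20885 and 19724 CPM (log2 -3.08 ± 0.06). Col1a2 stood at 1699.9, 1554 and 1659 against 18819.5, 17312 and 16798 CPM. Col3a1 stood at 332, 320.4 and 331 against 12759.6, 11678 and 11595 CPM (log2 -5.20 ± 0.07). Basement membrane collagen IV differed from the fibrillar chains. Col4a5 and Col4a6 lie head to head on the X chromosome, and Col4a5 rose to 777, 779 and 762 CPM from 342, 350.3 and 346 CPM. Col4a6 rose to 156, 164 and 157 CPM from 27.7, 26.8 and 26.9 CPM. Col4a1, the ubiquitous chain, stood at 2854, 2800.1 and 2641 against 2627, 2639 and 2519 CPM and did not pass, although it did with library totals alone (log2 0.17) or when only the 6 libraries were fitted, and the number of chains called higher was then 4.

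In the elastic fibre list, 15 of 16 members fell and 1 rose (median -3.07). Beside Eln and its microfibril partner Mfap4, at 1.39, 1.23 and 1.93 against 705, 624 and 603 CPM, the fibrillins fell. Fbn1 stood at 233, 216 and 234 against 2996, 2839 and 2885 CPM. Fbn2, the embryonic form, stood at 30.1, 27.04 and 28.3 against 2191, 2116 and 2059.8 CPM (log2 -6.22 ± 0.16). Efemp1, a fibulin family member, was the exception at 646, 599 and 617 against 141, 150.1 and 136 CPM. All 10 small leucine-rich proteoglycans, which coat and space collagen fibrils, fell by 2-fold or more (median -5.42). Lum, lumican, stood at 3.32, 3.54 and 4.38 against 425, 395 and 415 CPM (log2 -6.77 ± 0.15). Dcn, decorin, stood at 29.7, 26.9 and 34.3 against 944, 889 and 897 CPM (log2 -4.91 ± 0.10). Bgn, biglycan, stood at 869, 815 and 933 against 7259.9, 6969 and 6704 CPM (log2 -3.00 ± 0.07).

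Enzymes that build the matrix moved both ways. Of 19 collagen-modifying enzymes, 12 fell and 4 rose (median -0.30), with Lox, the cross-linking enzyme of collagen and elastin, at 487, 495 and 462 against 5217, 4986 and 5066 CPM. Bmp1, the procollagen C-proteinase, stood at 1005, 1030.1 and 1018 against 347, 355 and 341 CPM. Of adhesive and matricellular proteins, 13 of 18 fell and 5 rose. Postn, periostin, stood at 136, 145 and 181 against 9071, 9360.4 and 10008 CPM (log2 -5.94 ± 0.10). Fn1, fibronectin, stood at 2476, 2426 and 2541 against 9895, 9882 and 9262 CPM. Nov, a CCN family protein, stood at 2.94, 3.51 and 3.2 against 1120.3, 1027 and 1027 CPM. These 3 were lower in every GMT library than in every mock library. The relatives of Nov went the other way. Ctgf rose to 942, 964 and 882 CPM from 317, 302 and 317 CPM. Cyr61 rose to 667, 651 and 648 CPM from 398, 333 and 357 CPM. Of proteases and inhibitors, 15 of 21 fell and 5 rose, with Mmp2, a gelatinase, at 56.3, 56.9 and 62.5 against 874, 855 and 828 CPM.

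Signalling genes divided by pathway. Of the ERK feedback and EGF receptor list, 22 of 28 members rose and 6 fell (median 0.85). Hbegf, a ligand of the EGF receptor, stood at 346, 355 and 322 against 18.5, 19.3 and 17.2 CPM (log2 4.22 ± 0.09). Dusp5, an ERK phosphatase, stood at 87.4, 84.2 and 83.9 against 10.4, 11.7 and 10.7 CPM. Dusp6, another, stood at 141, 139 and 133 against 26.7, 25.8 and 26.3 CPM. The Sprouty inhibitors went against the list: Spry1 stood at 13.02, 11.5 and 10.99 against 119, 113 and 105 CPM. Spry2 stood at 23.05, 21.9 and 19.9 against 55.2, 53.02 and 54.8 CPM, and both fell. In TGF-beta signalling, 7 of 25 rose and 15 fell, and ligands of the same family moved apart. Tgfb2 rose to 244, 240.2 and 238 CPM from 49.8, 49.6 and 46.8 CPM. Bmp2 rose to 39.2, 38.7 and 41.9 CPM from 1.98, 2.2 and 2.47 CPM, while Bmp4 fell to 1.96, 2.11 and 2.07 CPM from 32.5, 34.1 and 29.4 CPM. Tgfbr2, the type 2 receptor, fell to 170.4, 174 and 173 CPM from 387, 353 and 355 CPM.

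Wnt pathway genes fell in 20 of 26 members and rose in 5 (median -1.32). The secreted inhibitors moved apart. Sfrp1 fell to 24.1, 25.5 and 32.3 CPM from 481, 480.1 and 465 CPM. Sfrp2 fell to 1.48, 1.6 and 2.02 CPM from 95.6, 93.3 and 83.5 CPM. Wif1 rose to 50.7, 57.3 and 53.2 CPM from 1.00, 0.844 and 0.602 CPM (log2 6.02 ± 0.11). Axin2, a target and feedback inhibitor of the pathway, rose to 10.5, 10.8 and 11.3 CPM from 3.99, 4.52 and 3.96 CPM. Notch genes fell in 10 of 15 members and rose in 3, with Notch1 at 20.2, 17.9 and 19.6 against 56.2, 56.3 and 47.5 CPM and the ligand Jag1 at 49.4, 49.7 and 45.2 against 92.7, 99.7 and 92.2 CPM.

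Genes of the insulin-like growth factor axis fell in 11 of 15 members (median -2.09), and both ligands, which drive fetal and postnatal growth, were among them. Igf2 stood at 61.7, 58.6 and 58.4 against 2582, 2210.3 and 2131 CPM (log2 -5.28 ± 0.08). Igf1 stood at 10.3, 11.6 and 10.5 against 395, 365 and 409.9 CPM (log2 -5.17 ± 0.09), and the carrier Igfbp3 at 20.3, 21.04 and 22.3 against 1608, 1419 and 1484 CPM. Igf2r, the receptor that clears IGF2, rose to 2235, 2345 and 2432 CPM from 904, 917 and 913 CPM. The imprinted genes, several of which set fetal growth, fell in 12 of 14 members, a list that shares Igf2, Igf2r and H19 with the former. Igf2r was the member that rose. H19 (ENSMUSG00000000031, chromosome 7, 142575529-142578143 on GRCm38), a long noncoding RNA expressed beside Igf2, stood at 31.1, 31.01 and 42.1 against 3500.0, 3181 and 3096 CPM (log2 -6.55 ± 0.11). Dlk1, a preadipocyte and fetal stroma factor, stood at 3.23, 3.23 and 4.46 against 835, 678 and 639 CPM. Cdkn1c, a cell cycle inhibitor, stood at 2.28, 2.66 and 2.74 against 263, 256 and 251 CPM (log2 -6.64 ± 0.13). In the renin-angiotensin list, 4 of 8 members fell and 2 rose. Beside Agtr2, Agtr1a, the type 1 receptor, fell to 0.297, 0.4 and 0.349 CPM from 12.9, 10.2 and 10.9 CPM, and Agt, the precursor, stood at 1.63, 2.14 and 2.02 against 0.443, 0.302 and 0.507 CPM.

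Proliferation genes were lower. Of 29 S phase genes, 27 fell and none rose (median -1.04), and of 29 genes of G2 and mitosis, 28 fell, 26 of them by 2-fold or more (median -1.84). Mki67, the Ki-67 proliferation marker, stood at 28.6, 27.6 and 36.3 against 166, 170.0 and 174 CPM (log2 -2.46 ± 0.15). Top2a, the mitotic topoisomerase, stood at 32.01, 30.7 and 40.9 against 149, 151 and 149 CPM. Mcm6, of the replicative helicase, stood at 32.96, 32.6 and 33.7 against 85.8, 82.5 and 85.7 CPM. The G2 and M phase gene that rose, Cenpa, the histone variant of centromeres, stood at 206, 211 and 204 against 24.4, 24.8 and 24.4 CPM (log2 3.08 ± 0.06), against the direction of the other 28. Promoters of this list held the CCAAT box (CCAAT, either strand) in 18 of 23 matched genes, against 35.4% of all. The box was in 13 of 23 matched promoters of the S phase list. It was also in 14 of 18 of sterol and fatty acid synthesis, a list that was split in direction. The share describes the list and does not set it apart. Inhibitors of the cycle and p53 targets went both ways, 13 higher and 12 lower of 27. Cdkn1a (p21) rose to 1515, 1535 and 1469 CPM from 528, 525 and 499 CPM. Cdkn1b (p27) fell to 20.9, 20.8 and 22.7 CPM from 69.6, 72.5 and 69.4 CPM. Cdkn2a, the senescence locus of p16 and p19Arf, stood at 103, 97.1 and 88.7 against 88.2, 89.97 and 81.9 CPM and did not pass (log2 0.15 ± 0.07), although it passed in 4 of the 12 alternatives with up to 0.22.

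Biosynthesis lists followed. Of 44 cytosolic ribosomal protein genes, 36 fell, none by 2-fold, with a median of -0.32, and processed copies of these genes make single levels uncertain. Of the ATF4 and amino acid response, 22 of 30 members fell and 6 rose (median -0.98). Trib3, a pseudokinase induced by ATF4, stood at 10.0, 8.91 and 9.14 against 90.3, 94.9 and 84.4 CPM (log2 -3.27 ± 0.08). Phgdh, of serine synthesis, stood at 60.5, 55.9 and 54.8 against 160.2, 147 and 133 CPM. Asns, asparagine synthetase, stood at 103, 101 and 95.4 against 176, 176 and 173 CPM. The stress factor Atf3 went the other way, at 44.6, 43.3 and 40.7 against 6.62, 6.24 and 7.23 CPM. Sterol and fatty acid synthesis was split, with 11 higher and 8 lower of 28 (5 lower with library totals alone). Scd1, a desaturase, stood at 839, 805 and 847 against 178, 166 and 168 CPM. Of 33 Hox genes, 18 fell and 6 rose, with Hoxd13, of the distal limb, at 5.1, 6.11 and 5.35 against 35.9, 39.2 and 33.98 CPM.

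Interferon-stimulated genes were higher in GMT. Of 48 effectors, 44 rose, 31 of them by 2-fold or more, and 1 fell (median 1.26). Isg15 (ENSMUSG00000035692, chromosome 4, 156199424-156200818 on GRCm38), a ubiquitin-like modifier, stood at 257, 272 and 218 against 33.6, 20.8 and 65.2 CPM (log2 2.65 ± 0.26, edgeR, adjusted p = 1.95e-09). Ifit1 (ENSMUSG00000034459, chromosome 19, 34640871-34650009 on GRCm38), an RNA-binding protein, stood at 181, 202 and 183 against 28.1, 14.9 and 64.6 CPM (log2 2.40 ± 0.30). Relative to their level, the mock libraries differed among themselves by more than the GMT libraries in both genes. Mock replicate 2 was lowest and mock replicate 3 highest, and every GMT library lay above every mock library. The gap was wider in a gene that mock cells barely held. Oas3, an activator of RNase L in a family of similar copies, stood at 92.99, 98.03 and 86.4 against 0.887, 0.422 and 2.25 CPM (log2 6.30 ± 0.24). Without mock replicate 3, 46 effectors rose and the log2 fold change of Isg15 was 3.19, that of Ifit1 3.12 and that of Oas3 7.12. Irf7, the factor that amplifies the response, stood at 157, 183 and 145 against 13.98, 8.99 and 21.7 CPM. Ifnb1, the ligand interferon beta, stood at 0.178, 0.143 and 0 against 0.0296, 0 and 0.0317 CPM, which did not pass. Of the ligands, receptors and signal transducers, 8 of 17 rose and 6 fell. The only effector that fell was Ifitm3, at 280.5, 290.1 and 249 against 336, 290.4 and 327 CPM, a call lost without GMT replicate 3 (log2 -0.15), mock replicate 1 (-0.18) or mock replicate 3 (-0.20) and with library totals alone (-0.14).

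The promoters of Isg15 and Ifit1 are shown because interferon-stimulated genes are read through a known element, the interferon-stimulated response element (ISRE), bound by STAT and IRF factors. The windows are chr4:156200819-156201068 on the minus strand and chr19:34640639-34640888 on the plus strand in the same table, and capitals mark matches, on either strand, to its core of 2 GAAA runs with any 2 bases between them.
Isg15: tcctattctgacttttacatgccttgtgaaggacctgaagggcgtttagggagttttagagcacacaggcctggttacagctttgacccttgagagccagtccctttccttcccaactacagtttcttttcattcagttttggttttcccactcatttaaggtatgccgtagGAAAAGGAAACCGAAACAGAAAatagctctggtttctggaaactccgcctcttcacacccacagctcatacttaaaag
Ifit1: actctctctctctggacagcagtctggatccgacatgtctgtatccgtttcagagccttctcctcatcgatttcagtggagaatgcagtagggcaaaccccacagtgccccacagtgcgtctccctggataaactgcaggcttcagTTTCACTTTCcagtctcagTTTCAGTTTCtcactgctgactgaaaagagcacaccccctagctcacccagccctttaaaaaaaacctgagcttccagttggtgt
Isg15 held 3 overlapping matches, the first beginning 78 bases before the start, and Ifit1 held 2. The element was in 14 of 38 matched promoters of the effector list, against 2.53% of all tested genes with a promoter sequence. It was also in 6 of 33 matched promoters of the cytosolic ribosomal protein list, in which 36 of 44 genes fell. Matches were in 3 of 23 promoters of the chemokine and interleukin list and 2 of 14 of the macrophage markers as well. The shares describe the lists, and binding was not measured here.

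Chemokine, interleukin and complement genes fell in 18 of 30 members and rose in 7. Cxcl12, a fibroblast chemokine that retains blood progenitors, stood at 43.4, 42.97 and 55.5 against 605, 621 and 594 CPM (log2 -3.68 ± 0.08). C3, complement component 3, stood at 2.61, 2.74 and 3.52 against 79.3, 73.9 and 72.3 CPM. Ccl2, which draws monocytes, rose to 48.2, 42.1 and 40.9 CPM from 32.1, 29.4 and 32.1 CPM. Macrophage markers moved with them: 18 of 20 tested markers fell, all by 2-fold or more, and Lgals3, a galectin that fibroblasts also make, rose. Without mock replicate 2, 19 fell. Lyz2, the macrophage lysozyme, stood at 20.8, 15.2 and 15.7 against 271, 187 and 258 CPM. Mrc1, the mannose receptor, stood at 1.72, 1.46 and 1.4 against 52.1, 39.03 and 59.1 CPM. Csf1r, the receptor of their growth factor, stood at 28.2, 25.3 and 23.99 against 34.9, 21.4 and 35.1 CPM, which did not pass. Their summed level was 239.9 to 269.9 CPM in the GMT libraries and 534 to 752 CPM in mock, of which Lgals3 alone held 191, 194 and 175 against 104, 91.1 and 97.4 CPM. Lyz2 and Csf1r had counts in every library of both groups, and mock replicate 2, the lowest in interferon genes, was also the lowest in this sum. The part of macrophages in the differences of chemokine and interferon genes was not tested.

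Markers of further cell types moved both ways. Of 11 tested endothelial markers, 3 rose and 5 fell, with the defining Pecam1 at 0.208, 0.143 and 0.188 against 0.177, 0.0905 and 0.254 CPM. Cdh5 stood at 0.356, 0.114 and 0.0806 against 0.384, 0.483 and 0.444 CPM. Their summed level was 261 to 279.7 against 149 to 153 CPM, of which Flt1, the VEGF receptor 1, held 258, 269 and 249.8 against 126, 128 and 127 CPM. Of the epithelial and mesothelial markers, 4 of 10 tested members rose and 4 fell, all of these by 2-fold or more. They summed to 263 to 281 against 175 to 199.7 CPM, with Krt18, a simple-epithelium keratin, at 53.96, 56.5 and 55.8 against 3.37, 4.64 and 4.37 CPM. Msln, mesothelin, held the most of the sum in GMT, at 159, 148 and 135 against 65.4, 70.7 and 59.2 CPM. Upk3b, a uroplakin of mesothelium, fell to 18.6, 20.6 and 19.6 CPM from 65.8, 70.1 and 61.7 CPM, and Krt14, a keratin of basal epithelium, to 0.0593, 0.0857 and 0 CPM from 5.91, 5.46 and 5.67 CPM. The defining Epcam held 9 counts in GMT and 5 in mock and Cdh1 held 16 and 22, too few to test. Of the neural and glial markers, 6 of 13 tested members rose and 4 fell, with a sum of 293 to 323 against 158 to 163 CPM. Nes, nestin, held the most of it in GMT, at 184, 174 and 184 against 45.6, 46.9 and 45.05 CPM, whereas Map2, of neuronal microtubules, fell to 3.32, 2.77 and 4.27 CPM from 64.4, 67.98 and 71.9 CPM. Of the cartilage and bone markers, 4 of 13 tested members rose and 4 fell (median -0.28), with a sum of 177 to 187 against 142 to 149 CPM. Col10a1, the collagen of hypertrophic cartilage, held the most of that sum in GMT, at 109, 112 and 105 against 35.3, 34.02 and 32.7 CPM, whereas Comp, a cartilage matrix protein, fell to 0.89, 0.771 and 0.564 CPM from 44.5, 41.1 and 37.3 CPM. Each of these sums was higher in every GMT library than in every mock library, and their part in the results above was not tested. In the adipocyte list, 11 of 14 members rose, with Pparg, the regulator of fat cell genes, at 19.5, 18.3 and 18.3 against 3.72, 3.98 and 3.84 CPM. Lpl, lipoprotein lipase, fell, at 31.6, 31.7 and 29.9 against 368, 342 and 376 CPM. The adipocyte sum went the other way from the sums above, at 384 to 396 CPM in GMT against 538 to 573 CPM in mock.

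The same comparison at day 2 placed the day 7 values in time. The effect of GMT differed between the days by the interaction test of edgeR for 8707 genes (49.5%), higher at day 7 for 4265 (24.3%) and lower for 4442 (25.3%). Heart muscle genes differed in their course. Nppa was at 48.8 ± 4.56 CPM (mean ± SD, n = 3) in GMT at day 2 and 589.9 ± 39.6 CPM at day 7, with mock at 0.279 ± 0.0698 and 0.362 ± 0.183 CPM, and its effect was larger at day 7 by log2 3.20 ± 0.53. Myh6 moved from 14.4 ± 0.643 to 254 ± 10.6 CPM in GMT (difference of effects 5.15 ± 0.28). Tnnt2 was high from day 2, at 2753 ± 75.3 CPM, and its effect did not differ between the days past the threshold (-0.29 ± 0.13, edgeR, adjusted p = 0.0563). In other heart genes the effect was smaller at day 7. Hcn4 went from 32.9 ± 1.82 to 10.5 ± 0.522 CPM in GMT and from 0.0878 ± 0.0526 to 0.543 ± 0.252 CPM in mock, and the log2 effect at day 7 minus that at day 2 was -4.27 ± 0.77. Chrm2 went from 3.53 ± 0.256 to 4.3 ± 0.186 CPM in GMT and from 0.334 ± 0.164 to 2.03 ± 0.237 CPM in mock (difference of effects -2.31 ± 0.31). Over the lists, the effect was larger at day 7 in 5 of 9 thick filament, 6 of 11 thin filament and 14 of 21 Z disc genes, and lower in 0, 0 and 3 of them. Of 27 ion channels and exchangers it was higher at day 7 in 6 and lower in 11.

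Several of the largest falls at day 7 were of genes that mock cells gained between the days. Eln stood at 37.9 ± 6.88 CPM in mock at day 2 and 1688 ± 320.0 CPM at day 7, while GMT went from 26.4 ± 2.18 to 3.31 ± 1.96 CPM, so that the log2 effect at day 7 minus that at day 2 was -8.45 ± 0.29. Dlk1 went from 35.5 ± 3.59 to 717 ± 104 CPM in mock and from 10.4 ± 0.689 to 3.64 ± 0.71 CPM in GMT, and Igf1 from 24.3 ± 2.95 to 389.9 ± 22.8 CPM in mock and from 10.1 ± 1.07 to 10.8 ± 0.719 CPM in GMT. In these 3 genes mock rose with time by edgeR's test. A change of GMT with time was not tested. The effect was lower at day 7 in 20 of 21 collagen chains, 10 of 10 proteoglycans and 12 of 16 elastic fibre genes. It was higher at day 7 in 0, 0 and 0 of them. Lower here includes less positive: the log2 effect went from 2.17 at day 2 to 1.16 at day 7 for Col4a5, and from 4.14 to 2.55 for Col4a6. The sum of the macrophage markers in mock was 188 to 202 CPM at day 2 and 534 to 752 CPM at day 7. In GMT the sum was also higher at day 7, at 163 to 186 CPM at day 2 and 240 to 270 CPM at day 7. Lgals3 held most of the GMT sum at day 7. The effect was lower at day 7 in 19 of 20 markers and higher in 1.

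Interferon-stimulated genes followed the opposite course, with mock levels lower at day 7 than at day 2. Isg15 stood at 439 ± 69.2 CPM in mock at day 2 and 39.9 ± 22.8 CPM at day 7, and at 424 ± 19.8 and 249 ± 27.7 CPM in GMT. At day 2 the median effect on the effectors was -0.42, against 1.26 at day 7, and the effect was larger at day 7 in 47 of 48. The summed level of the effectors in mock ranged from 6964 to 9141 CPM at day 2 and from 2119 to 2930.1 CPM at day 7. In GMT it ranged from 6961 to 7573 CPM at day 2 and from 5202 to 5808 CPM at day 7. Ctgf changed direction: it was lower than mock at day 2, at 406 ± 0.394 against 533 ± 52.5 CPM, and higher at day 7 (difference of effects 1.97 ± 0.11). Smooth muscle genes were closer to mock at day 7. Their median effect was -1.70 at day 2 and -0.71 at day 7, and 12 of 15 had a higher effect at day 7.

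**Figure D3:**
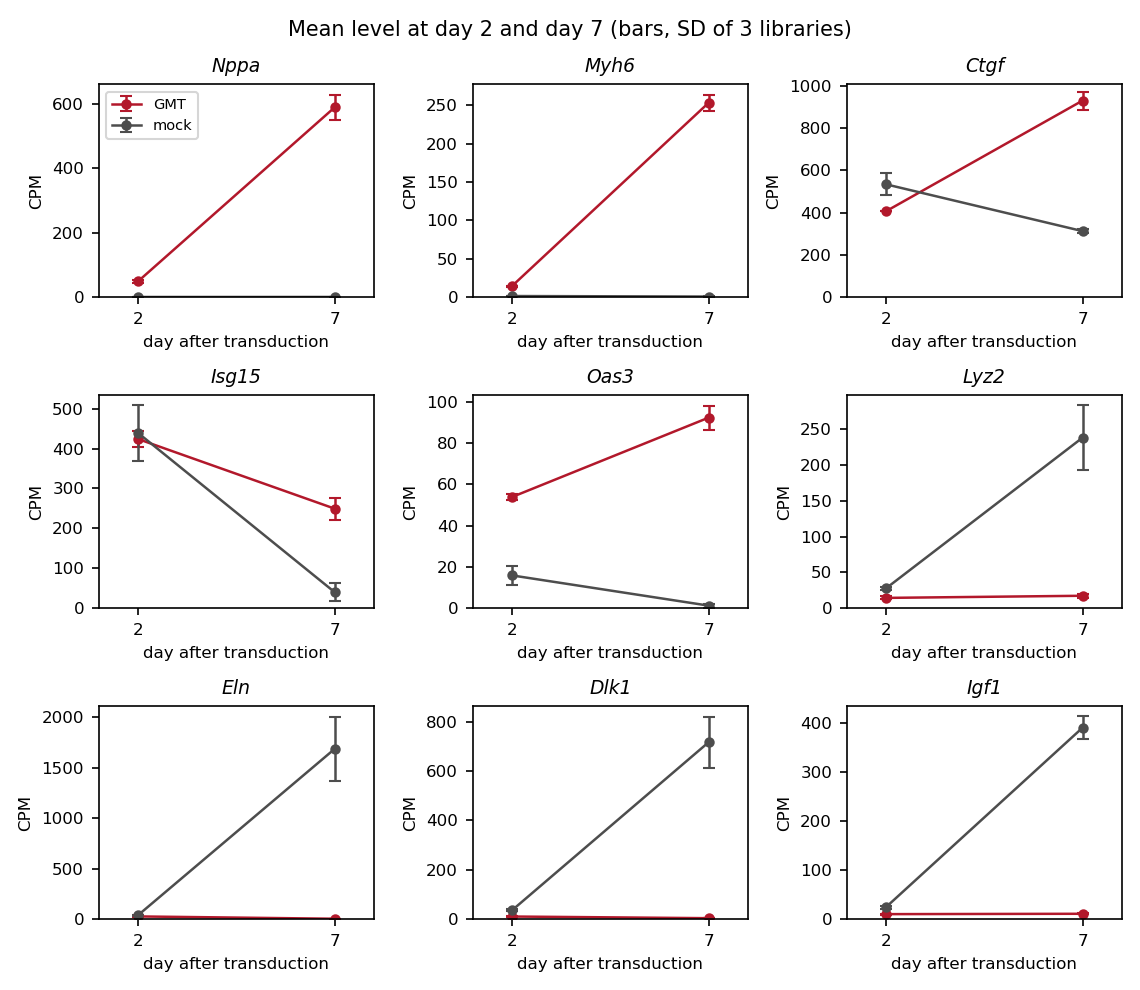
Mean level in CPM (vertical axis, linear, separate scale per gene) at day 2 and day 7 in GMT (red) and mock (grey), with the SD of 3 libraries. The means of Nppa and Myh6 were higher in GMT at day 7 than at day 2, those of Eln, Dlk1, Igf1 and Lyz2 were higher in mock at day 7 than at day 2, and Isg15 dropped more in mock than in GMT.

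GMT lacks Hand2 and Akt1, and its day 7 level was set against GHMT and AGHMT by direct contrasts, which use the same GMT libraries. Against GHMT, 3308 genes were higher in GMT (18.8%) and 3290 lower (18.7%), and against AGHMT 4909 were higher (27.9%) and 5238 lower (29.8%). The cardiac genes did not follow 1 order. Casq2 was lower in GMT, at 204 ± 7.79 CPM against 2329.6 ± 97.9 in GHMT and 2164 ± 73.3 in AGHMT (log2 -3.51 ± 0.05 and -3.40 ± 0.05). Hcn4 was at 10.5 ± 0.522 CPM against 414 ± 54.7 and 779.8 ± 9.34, and Mb at 36.6 ± 2.26 CPM against 285 ± 12.4 and 764 ± 28.7. Myh6 was lower in GMT too, at 254 ± 10.6 CPM against 887 ± 81.9 and 4610.3 ± 176 (log2 -1.81 ± 0.08 and -4.18 ± 0.09). In contrast, Csrp3 was higher in GMT, at 132 ± 11.1 CPM against 17.6 ± 1.88 and 15.2 ± 0.352 (log2 2.91 ± 0.10 and 3.12 ± 0.10), and so was Myl7, at 1593 ± 9.34 CPM against 940.0 ± 54.3 and 1072 ± 40.99.

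By list, GMT was above GHMT in 3 and below it in 2 of 9 thick filament genes, and above AGHMT in 4 and below it in 2. Of 11 thin filament genes, GMT was above GHMT in 4 and below it in 6, and above AGHMT in 1 and below it in 9. For 21 Z disc genes these counts were 6 and 8 against GHMT, and 6 and 14 against AGHMT. Against AGHMT, GMT was above in 2 and below in 11 of 15 sarcoplasmic reticulum genes. The counts were 1 and 7 of 9 for the M band and ubiquitin ligases, and 2 and 22 of 27 for ion channels. Oxidative phosphorylation genes were higher in GMT than in GHMT in 26 of 54 and lower than in AGHMT in 47. Interferon effectors were higher in GMT than in AGHMT in 46 of 48 and lower in 1. Against GHMT, 1 effector was higher in GMT and 6 were lower. Isg15 was at 249 ± 27.7 CPM in GMT, 235 ± 25.3 in GHMT and 46.03 ± 14.03 in AGHMT, and the log2 difference of GMT from GHMT was 0.08 ± 0.24, which did not pass. Of 14 imprinted genes, 9 were lower in GMT than in GHMT and 1 was higher, and 9 were lower in GMT than in AGHMT and 0 higher. H19 was at 34.7 ± 6.38 CPM in GMT against 912 ± 57.5 and 1506 ± 11.6, and Cdkn1c at 2.56 ± 0.243 CPM against 66.3 ± 4.1 and 187 ± 5.03. Agt, the angiotensin precursor, was at 1.93 ± 0.266 CPM against 205 ± 6.36 and 571 ± 21.6. Eln, at 1688 ± 320.0 CPM in mock, was low under each cocktail, at 3.31 ± 1.96, 9.85 ± 1.9 and 19.6 ± 1.48 CPM in the same order.

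**Figure D4:**
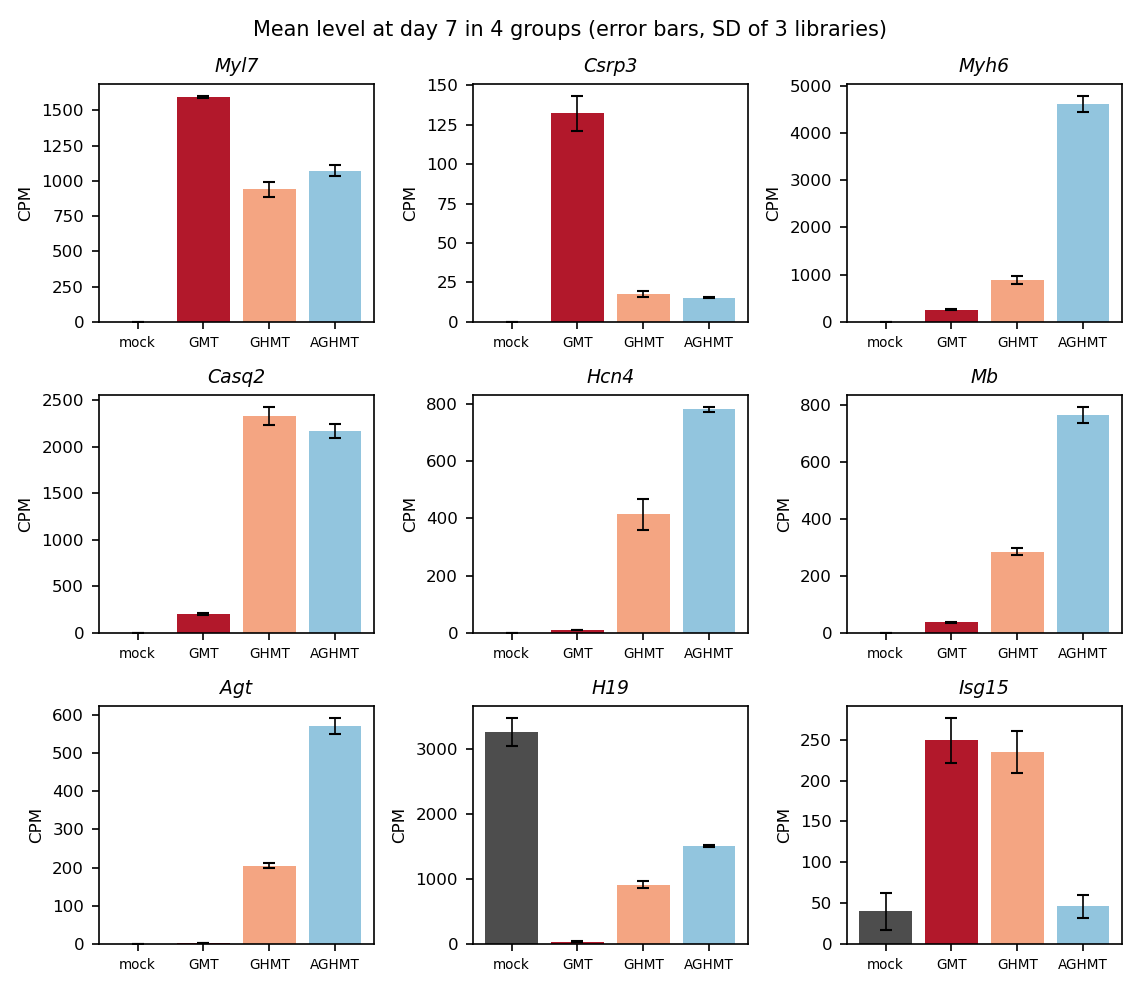
Mean level in CPM (vertical axis from 0, separate scale per gene) at day 7 in mock, GMT, GHMT and AGHMT, with the SD of 3 libraries. Myl7 and Csrp3 were highest in GMT, Myh6, Casq2, Hcn4, Mb and Agt were lower in GMT than in the other cocktails, H19 was lowest in GMT, and Isg15 was lower in AGHMT than in GMT.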

How the data were processed

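RNA of mouse embryonic fibroblasts was measured in 24 libraries (8 groups of 3), and the account above rests on the 3 GMT and 3 mock libraries of day 7. Values are raw read counts per gene as the authors deposited them. Tools listed in the submitters' processing notes, with no roles, are featureCounts 1.4.6, HISAT2 2.0.1, DESeq2 1.6.3 and Trim Galore 0.4.1, with builds GRCm38 and mm10. For the annotation release and the strand setting nothing was found (not given in the sources used here), so overlapping and antisense genes may share counts, and genes with near-identical copies are uncertain. A second deposited table of log-scale values was not used.

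From the counts, edgeR 4.0.16 (R 4.3.3) kept genes by filterByExpr, which left 17576 of 47967, scaled libraries by TMM and fitted the quasi-likelihood model with 1 mean per group over all 24 libraries (16 residual degrees of freedom). Tests were two-sided with Benjamini-Hochberg adjustment over all tested genes at 0.05. CPM are counts divided by the TMM-scaled library total and put on the CPM scale. A gene with no count in a group was set to 3 counts per library for a lower bound, and with 1 to 3 counts the ratio has an exact 95% counting interval, which covers counting error only. The fit of GMT against mock at day 7 was tested on simulated counts of these 2 groups with known changes. Far fewer genes were changed there than in these data. The simulation therefore does not cover so widespread a change or the other contrasts. Gene IDs were matched to GENCODE M21 for positions on GRCm38 (17515 of 17576) and to the RefSeq promoter table of GRCm38.p6 (12014 of 17576), in which motifs were searched in the 250 bases before the first start listed.

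Named genes were the factor genes, the 12 highest and 12 lowest fold changes (called, at least 5 CPM in the higher group, libraries not overlapping, unnamed models and pseudogenes left out), and, in each of 48 gene lists, members marked as key and the 3 highest and 3 lowest called members at 5 CPM or more, with lists of up to 12 tested members named freely. Fhl2 lies outside this rule, and some genes within it are not reported here. The members and lists were chosen with earlier results of these data known. Alternatives were DESeq2 1.42.0, RLE size factors, library totals alone, no filter, the replicate number as a block, only the 6 libraries, and leaving out each of them.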

Additional observations from a re-analysis of the deposited data

Results flagged for a closer look

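The effect of GMT over mock was tested at day 7 against day 2. Of the genes named in the text, 152 of 191 had an effect that differed between the days by edgeR's interaction test, 70 higher and 82 lower at day 7, beside 49.5% of all tested genes. The named genes were chosen in part by their day 7 effect, which enters this difference, so nothing is read from that count. The values given here are the differences of the 2 effects (day 7 minus day 2, log2) for the genes whose course over time the text gives and for the named genes that passed in opposite directions on the 2 days.

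Among heart and muscle genes the difference was 3.20 for Nppa and 5.15 for Myh6, and -4.27 for Hcn4 and -2.31 for Chrm2. Acta1, skeletal alpha-actin, was lower than mock at day 2 (log2 -3.13) and higher at day 7 (0.34), a difference of 3.47. Tpm1 crossed from -0.17 to 0.71, a difference of 0.87. The channel genes crossed the other way. Kcnj2 went from 1.17 at day 2 to -2.68 at day 7, a difference of -3.85, and Itpr1 from 0.35 to -0.77, a difference of -1.13. Gata6, the relative of Gata4, went from 0.73 to -0.53, a difference of -1.26.

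Among matrix and growth genes the difference was -8.45 for Eln, -5.84 for Dlk1 and -3.90 for Igf1. Sfrp2, a secreted Wnt inhibitor, was higher than mock at day 2 (0.41) and lower at day 7 (-5.73), a difference of -6.14. Other genes crossed upwards. Ctgf went from -0.39 to 1.58, a difference of 1.97. Ccl2 went from -2.51 to 0.49, a difference of 2.995, and Msln from -0.55 to 1.18, a difference of 1.72. For Isg15 the difference was 2.70, with an effect at day 2 of -0.05 that did not pass. Groups of 3 libraries were too small to test single libraries as outliers.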

How the results depend on the processing

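The 10 counts over the whole table (GMT against mock, at any size and at 2-fold or more, the day difference, and GMT against GHMT and AGHMT) stayed within 1.5 times their main value in all 102 runs of the alternatives. For GMT against mock, 6466 genes were higher and 6118 lower with DESeq2, 6595 and 6257 with RLE size factors, 6647 and 6659 without the filter, and 6414 and 6308 when only the 6 libraries were fitted. Leaving out 1 library gave 6221 to 6327 higher and 6107 to 6166 lower. With library totals alone the median of all genes moved from 0.01 to 0.09 and the counts to 7181 higher and 5718 lower, 55.7% higher among the called genes against 50.7%, so small rises are read relative to that shift.

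With the replicate number as a block, 6498 genes were higher and 6298 lower. Deviations from the group means of same-numbered GMT and mock libraries correlated over genes by 0.0269, -0.0264 and 0.00644. Not every library correlated best with its own number. With so few libraries these values cannot decide whether same-numbered libraries shared a culture or batch. The thick filament call of a fall was 0 under the block, and the skeletal muscle list held 1 fall of 2-fold or more.

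Of the list counts, 48 of 2304 values moved by more than 1.5 times, all of them counts of 8 or fewer. The number of thick filament genes that fell was 0 with DESeq2, RLE size factors, library totals alone, no filter, and only the 6 libraries. Skeletal muscle genes lower by 2-fold or more numbered 1 with DESeq2 and with no filter. With library totals alone, smooth muscle genes lower by 2-fold numbered 3, oxidative phosphorylation genes higher by 2-fold 8, fatty acid oxidation genes lower 1, collagens higher 4, interferon effectors lower 0, sterol genes lower 5 and macrophage markers higher by 2-fold 1. Interferon ligands, receptors and signal genes lower by 2-fold numbered 2 with no filter, and collagens higher numbered 4 with only the 6 libraries.

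When each library was left out in turn, the counts ranged from 0 to 1 for thick filament genes lower and lower by 2-fold, for skeletal muscle genes lower and lower by 2-fold, for interferon effectors lower and for fibroblast transcription factors higher by 2-fold. The range was 0 to 2 for Hox genes higher by 2-fold, 1 to 4 for neural markers lower, 1 to 2 for neural markers lower by 2-fold, for fatty acid oxidation genes lower and for interferon ligand and signal genes lower by 2-fold, 2 to 4 for the latter higher by 2-fold, and 2 to 4 for endothelial markers lower by 2-fold.

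Of the named genes, 177 of 191 kept direction and side of the threshold in all 12 alternatives. The other 14 were Acta1, Akt1, Cdh5, Cdkn2a, Col4a1, Csf1r, Ifitm3, Ifnb1, Myh7, Myh7b, Myl3, Myog, Pecam1 and Tnni2, of which Myh7, Myh7b, Myl3, Myog, Tnni2, Cdh5, Pecam1 and Ifnb1 rest on few counts. Direction changed only in genes that did not pass. Akt1 was at 0.055 with library totals alone and ranged from -0.072 to 0.0067 when 1 library was left out. On leaving out 1 library, Pecam1 ranged from -0.25 to 0.40, Myl3 from -0.81 to 1.45 and Myog from -0.028 to 0.64. Among called genes with few counts in 1 group, Kcnj5 ranged from 10.57 to 12.30, Trim63 from 5.65 to 6.52, Meox2 from -8.34 to -6.24 and Olfml1 from -9.64 to -7.92. The causes were not tested.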
